A study of Mus musculus with 12 samples.

Results

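Described here are 10 genes known from lipid-associated macrophages and from macrophages of scarred tissue: Trem2, Spp1, Gpnmb, Fabp4, Fabp5, Cd9, Lgals3, Apoe, Lpl and Plin2. They were taken by symbol from a table of 22294 mouse genes, and all 10 were found. RNA had been sequenced from endometrial cells of mice that bound magnetic beads against F4/80, a surface protein of mouse macrophages encoded by Adgre1. The 12 libraries form 4 groups of 3. The Sham group had a sham operation and is labelled untreated. The IUA group carried a model of intrauterine adhesion, a disease in which scar bands close the uterine cavity, and its libraries are named Matrigel. The control MSC group had the same model plus control mesenchymal stromal cells (MSC). The primed MSC group had the model plus MSC treated beforehand with inflammatory cytokines. The series title gives the MSC as hUC-MSCs, the usual abbreviation for human umbilical cord MSC. The IUA model is therefore common to all groups but Sham. Strain, age, the number of mice behind a library, the cytokines and the place of Matrigel in the model are not given in the sources used here. Matrigel and the model itself cannot be told apart in these groups. Each p-value here measures spread between libraries, which may be partly technical.

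Macrophages that clear dying cells, lipid or matrix debris take on a shared set of transcripts first described in adipose tissue, scarred liver and the diseased brain. TREM2 is a surface receptor that binds lipids and lipoproteins, apolipoprotein E among them, and signals through the adaptor TYROBP (DAP12). Lipoprotein lipase releases fatty acids from lipoproteins, FABP4 and FABP5 carry them in the cytosol, and perilipin 2 coats the droplets in which they are stored. Osteopontin (Spp1), galectin-3 (Lgals3) and GPNMB are proteins that macrophages secrete or display in scarring and healing tissue, and CD9 is a tetraspanin of the cell membrane that scar-associated macrophages carry but that many epithelial cells make as well.

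Levels are FPKM as computed by the authors, a measure scaled to transcript length and to the mapped fragments of a library, so genes can be compared per length. Group values are the mean ± SD of 3 libraries. Changes are differences of log2(FPKM + 1) with their standard error (SE) from limma fitted to all 12 libraries. A gene is said to rise or fall where its Benjamini-Hochberg adjusted p, taken over all 11604 tested genes, was under 0.05. By the moderated F test all 10 genes differed among the 4 groups, as did 67.0 percent of tested genes, with adjusted p from 3.62e-07 for Spp1 to 0.00298 for Apoe. All 10 were at 6.81 FPKM or more in every library, so each passed the filter on low values in every group.

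Macrophage markers were present in all libraries, and markers of other cells were as well. The summed FPKM of 16 macrophage identity genes was 12572 to 15349 in Sham and 33116 to 38484 in the libraries of the other 3 groups. Lyz2 (means of 6831 in Sham and 18225 in IUA) and Cd14 (3122 and 7572) made up most of it. In IUA against Sham 13 of the 16 rose, with a median log2 change of 0.91. Cx3cr1 fell, and Csf1r and Spi1 did not pass. The 16 epithelial markers summed to 8272 to 14408 in Sham and to 1846 to 5795 elsewhere, with 15 of them above 1 FPKM. The 15 endothelial markers summed to 338 to 628 in Sham and to 130 to 221 elsewhere. The sum of 11 neutrophil markers went the other way, from 64.8 to 105 in Sham to between 344 and 1475 elsewhere. Most of this sum was Ltf, which is also one of the 16 epithelial markers. Its means were 48.8 FPKM in Sham, 265 in IUA, 683 with control MSC and 716 with primed MSC. Of 10 tested neutrophil markers 7, Ltf included, rose in IUA against Sham and none fell. Among all tested genes 11.1 percent rose and 45.0 percent fell in this comparison. Ly6g, not tested, was at most 0.69 FPKM in IUA. Retnlg had lower means outside Sham (17.1 in Sham, then 11.5, 5.68 and 5.32). IUA replicate 3 stood apart by the GC content of its transcripts, with a rank correlation of gene-centred values with GC of -0.49 across genes, against -0.18 and -0.15 in IUA replicates 2 and 1 and values of -0.09 to 0.22 in the rest. Without that library the calls of IUA against Sham below were the same for all 10 genes.

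In the adhesion model 9 of the 10 genes rose against Sham and Cd9 fell, and none of the 10 had libraries of the 2 groups that overlapped. Of all tested genes, 11.1 percent rose and 45.0 percent fell, and 11.9 percent lay wholly above and 47.7 percent wholly below Sham. The largest change was that of Spp1, 16.8-fold, and the smallest rise that of Apoe, 1.62-fold. The median change of the 10 genes was 1.29 on the log2 scale, beside -0.35 for all tested genes. The summed FPKM of the 10 genes made up 2.48 to 2.74 percent of the library in Sham, 3.89 to 5.30 percent in IUA, 3.90 to 4.44 percent with control MSC and 3.63 to 4.31 percent with primed MSC. In these bulk samples, more cells of a type and more RNA per cell cannot be told apart. The summed FPKM of the macrophage identity genes moved with the groups as given above.

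**Figure D1:**
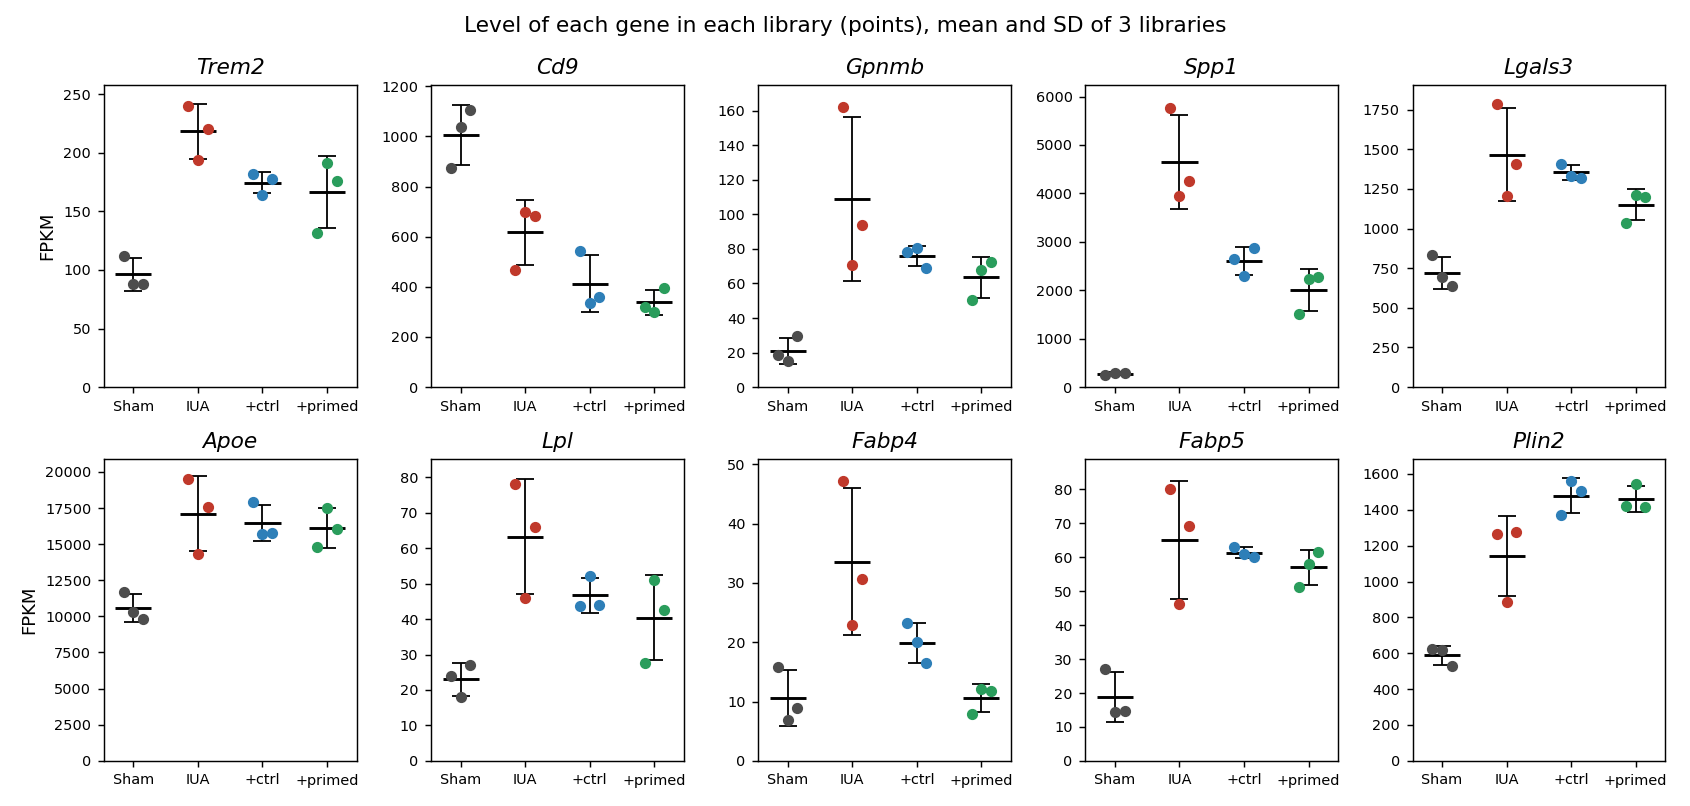
FPKM of each of the 10 genes (linear axis from 0) in each library (points), with the mean and SD of the 3 libraries of a group (bars), for Sham, IUA, IUA with control MSC (+ctrl) and IUA with primed MSC (+primed). All IUA points lie above all Sham points for 9 genes and below them for Cd9.

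How far these rises exceed that of 4 macrophage reference genes depends on the gene. The reference genes were Adgre1, Csf1r (the receptor of the growth factor CSF1), Cd68 (a lysosomal membrane protein) and Ptprc (CD45, the pan-leukocyte phosphatase), and each library was centred on their mean. After this the median of all tested genes lay at -1.29, and 4 of the 10 genes were still higher in IUA than in Sham: Spp1 by 3.11, Gpnmb by 1.34, Fabp5 by 0.83 and Fabp4 by 0.66 on the log2 scale. On that scale Trem2 (0.24, adjusted p = 0.134), Lpl (0.47, 0.0538) and Lgals3 (0.07, 0.609) were not called, Plin2 was at 0, and Apoe had the opposite sign (-0.25, adjusted p = 0.0693). Median-ratio scaling, which brought the median of all genes to -0.03, gave rises of 1.07 to 4.43 for the 9 genes and no call for Cd9 (-0.34, adjusted p = 0.145). With the mean level of the epithelial markers as a covariate the rises of Trem2, Spp1, Gpnmb, Fabp5, Lgals3 and Plin2 passed, and those of Fabp4 (1, 0.0973), Apoe (0.48, 0.0998) and Lpl (0.86, 0.0653) did not. This level also separates Sham from all other libraries, so its part and that of the model cannot be told apart here.

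**Figure D2:**
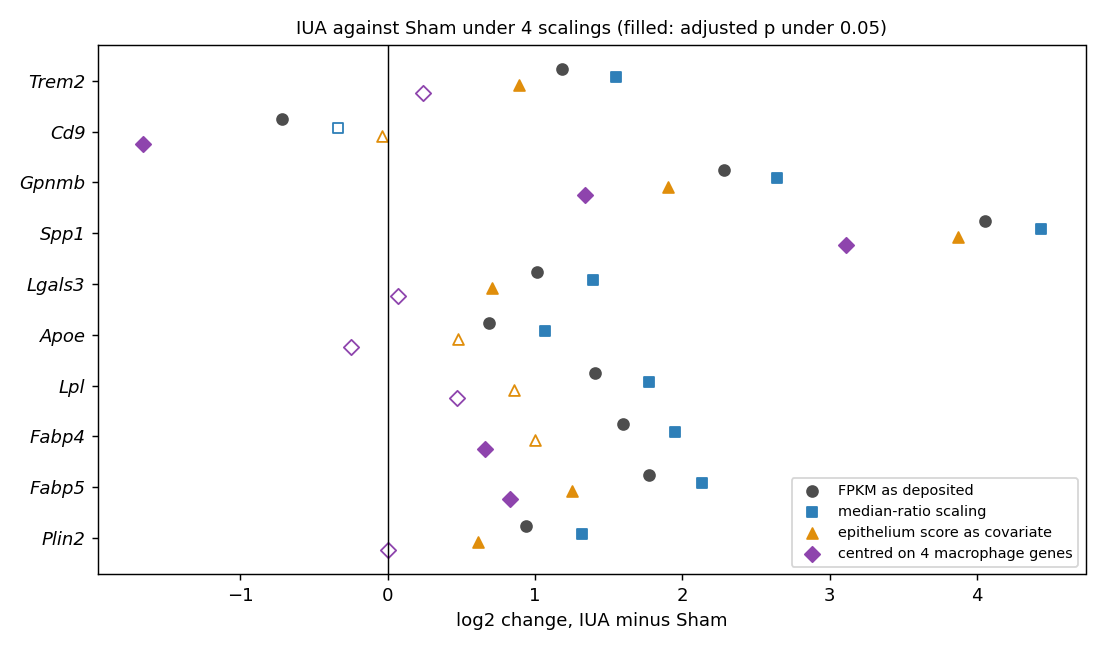
Log2 change of IUA against Sham (horizontal axis) for each gene, from the FPKM as deposited (circles), after median-ratio scaling (squares), with the epithelial score as a covariate (triangles) and after centring on 4 macrophage genes (diamonds); filled symbols passed an adjusted p under 0.05. Spp1, Gpnmb and Fabp5 are filled and above 0 in all 4, Cd9 is below 0 in all 4, and centring moves Apoe below 0 (-0.25) and Plin2 to 0.

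The stretches of 250 bases before the RefSeq start (build GRCm38.p6) are shown for Trem2 and Spp1, the receptor and the secreted protein that rose, and for Cd9, the gene that fell. RefSeq entries were matched for 7 of the 10 genes and were not used for Fabp4, Fabp5 and Lpl. Both strands were searched for 6 motifs of factors known in macrophages, and none of the matches overlapped another. Capitals mark the match, to an open AP-1 pattern in Trem2 and to the PU.1 letters in Spp1, and Cd9 held none. Each is written 5′ to 3′ on the strand of its gene.
Trem2, chr17:48346151-48346400, plus strand: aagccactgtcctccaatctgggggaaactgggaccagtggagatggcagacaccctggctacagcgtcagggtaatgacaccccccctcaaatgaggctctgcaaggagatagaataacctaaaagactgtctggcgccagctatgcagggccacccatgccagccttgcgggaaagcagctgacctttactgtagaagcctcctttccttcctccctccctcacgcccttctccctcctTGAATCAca
Spp1, chr5:104434861-104435110, plus strand: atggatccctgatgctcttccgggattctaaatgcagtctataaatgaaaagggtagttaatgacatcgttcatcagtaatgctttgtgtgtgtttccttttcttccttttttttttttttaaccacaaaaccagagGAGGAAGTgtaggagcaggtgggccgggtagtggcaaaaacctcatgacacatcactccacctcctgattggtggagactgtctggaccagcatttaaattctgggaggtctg
Cd9, chr6:125494761-125495010, minus strand: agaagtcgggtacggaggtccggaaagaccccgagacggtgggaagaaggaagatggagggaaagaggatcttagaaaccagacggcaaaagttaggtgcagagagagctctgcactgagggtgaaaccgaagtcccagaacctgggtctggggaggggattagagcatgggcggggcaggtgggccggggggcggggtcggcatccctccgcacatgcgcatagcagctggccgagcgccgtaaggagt
The pattern TGANTCA, searched for AP-1 with any base (N) in the middle, was matched in Trem2 from 9 to 3 bases before the start. Of 32851 promoter entries of this length, 6.75 percent hold this open pattern. The match in Trem2 has A in the middle, so it fits the open pattern only and is not shown to be an AP-1 site. The PU.1 letters GAGGAAGT were matched in Spp1 from 113 to 106 bases before the start, and 2.44 percent of entries hold them. None of the 7 genes held TCACGTG (3.13 percent of entries) or TCATGTG (3.25 percent), the E-box and M-box of the MIT/TFE factors, or the direct repeats of AGGTCA bound by PPAR with RXR (0.0335 percent) and by LXR with RXR (0.0152 percent). The entry used for Lgals3 starts 6109 bases from the start of the gene in GENCODE M21. For Gpnmb the bases just after the start of its entry were not found in a GENCODE transcript of the gene. The absence of a match covers only the stretches searched. A match is a description of letters and not a bound site, and no binding was measured here.

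Trem2 (chromosome 17, 48346401 to 48354147, plus strand, in mm10, as for all gene positions here) encodes the lipid-sensing receptor itself. Its FPKM was 112, 88.0 and 88.3 in Sham replicates 1 to 3, then 240, 194 and 221 in IUA, 181, 164 and 178 with control MSC and 132, 191 and 176 with primed MSC. Every IUA library was above every other library, and every Sham library was below the rest. Means were 96.1 ± 13.8, 218 ± 23.4, 175 ± 9.04 and 166 ± 30.8 FPKM in that order. The rise in IUA was 2.27-fold (log2 change 1.18 ± 0.15 SE, adjusted p = 0.000114). Per Cd68, Trem2 stood at ratios of 0.143 to 0.187 in all 12 libraries, with group means of 0.174, 0.165, 0.153 and 0.171, so the 4 groups overlapped on this measure. Cd68 itself rose in IUA and is also 1 of the 30 further genes of lipid-, scar- and disease-associated macrophages listed below.

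The adaptor of TREM2 was measured in the same libraries. Tyrobp rose from 309 ± 80.7 FPKM in Sham to 762 ± 36.9 in IUA (log2 change 1.33 ± 0.15, adjusted p = 5.51e-05) and stood at 943 ± 56.2 with control MSC and 853 ± 48.2 with primed MSC. The ratio of Trem2 to Tyrobp was 0.279 to 0.347 in Sham, 0.263 to 0.299 in IUA, 0.165 to 0.205 with control MSC and 0.155 to 0.218 with primed MSC. All 6 libraries with MSC were thus below all 6 without, a difference between libraries that was not tested. A list of 15 partners of TREM2 held adaptors, kinases, lipid phosphatases, the shedding protease and the co-receptor family MS4A. Of these, 9 rose in IUA and none fell, with a median change of 0.66. The 16 macrophage identity genes had a median of 0.91, with 13 that rose and 1 that fell. Of all tested genes 11.1 percent rose and 45.0 percent fell. Ms4a4a, of the MS4A family, rose by 1.77 ± 0.14 (adjusted p = 6.85e-06). Lat2, a membrane adaptor of myeloid cells, rose by 1.74 ± 0.15 (1.03e-05), and Adam17, a protease that sheds TREM2, by 0.87 ± 0.08 (2.24e-05).

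Apoe (chromosome 7, 19696109 to 19699188, minus strand), a lipid carrier that macrophages secrete, was the most abundant of the 10 genes. It ranked between the second and the fourth of all genes in every library. Its FPKM was 11665, 10273 and 9787 in Sham, 19483, 14299 and 17557 in IUA, 17886, 15699 and 15774 with control MSC and 14781, 17496 and 16059 with primed MSC. The libraries of the 3 IUA groups overlapped and all exceeded Sham. Means were 10575 ± 975, 17113 ± 2620, 16453 ± 1241 and 16112 ± 1358. The rise in IUA came to 1.62-fold (0.69 ± 0.14, adjusted p = 0.00162), was lost after quantile normalization (0.14, adjusted p = 0.292) and had the opposite sign after centring on the macrophage genes, as given above. Of 5 further apolipoprotein genes tested, Apoc1, Apoc2, Apoc4 and Apobr (a receptor) rose in IUA and Clu fell. Among all tested genes 11.1 percent rose and 45.0 percent fell.

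Lpl (chromosome 8, 68880491 to 68907448, plus strand), the secreted lipase of triglyceride-rich lipoproteins, was a low gene. Its FPKM was 23.9, 17.9 and 27.2 in Sham, 78.0, 46.0 and 65.9 in IUA, 43.8, 52.3 and 43.9 with control MSC and 27.5, 51.1 and 42.7 with primed MSC. Sham lay below all others, while the 3 IUA groups overlapped. The rise in IUA was 2.75-fold, from 23.0 ± 4.70 to 63.3 ± 16.2 (1.41 ± 0.24, adjusted p = 0.000524). Of 10 listed partners of Lpl, 6 were tested, with a median change of -0.38, near the -0.35 of all tested genes. Only Apoc2, its activating apolipoprotein, rose and only Gpihbp1, its anchor on endothelium, fell. Among all tested genes 11.1 percent rose and 45.0 percent fell. Apoc2 went from 9.99 ± 0.706 to 141 ± 13.6 FPKM (3.69 ± 0.13, adjusted p = 1.86e-08) and was at 146 ± 23.5 and 133 ± 11.5 with control and primed MSC. Gpihbp1, also one of the endothelial markers, fell by 0.95 on the log2 scale (± 0.32, adjusted p = 0.0255).

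Among the carriers of fatty acids, Fabp5 (chromosome 3, 10012548 to 10016607, plus strand) was at 27.2, 14.3 and 14.8 FPKM in Sham, 80.2, 46.1 and 69.3 in IUA, 63.1, 60.9 and 60.2 with control MSC and 51.4, 58.1 and 61.6 with primed MSC. Its means were 18.7 ± 7.32, 65.2 ± 17.4, 61.4 ± 1.52 and 57.0 ± 5.19. All 9 libraries of the model were above Sham, and the 3 IUA groups overlapped. Against Sham this was a 3.48-fold rise in IUA (1.77 ± 0.23, adjusted p = 0.00015).

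Fabp4 (chromosome 3, 10204088 to 10208576, minus strand) lies near Fabp5 and encodes the carrier known from adipocytes, endothelium and macrophages. Its FPKM was 15.8, 6.81 and 8.94 in Sham, 47.3, 22.9 and 30.7 in IUA, 23.2, 20.03 and 16.5 with control MSC and 7.89, 12.1 and 11.8 with primed MSC. The levels with primed MSC lay within the range of Sham, and those of control MSC lay between primed MSC and most of IUA. In the model it rose 3.19-fold, from 10.5 ± 4.72 to 33.6 ± 12.4 (1.6 ± 0.3, adjusted p = 0.000913). In the same comparison 14 of 15 endothelial markers fell, beside 45.0 percent of all tested genes. The 9 adipocyte markers summed to 6.46 to 13.5 FPKM in Sham and 2.30 to 4.82 in IUA, a sum made up mostly of Thrsp (9.36 and 2.07 on average). Of the others, Lep was at 0 in all libraries, and Adipoq, the adiponectin gene, was at most 0.05 in Sham and 0.09 to 0.43 in IUA. The part of endothelial or adipocyte RNA in the level of Fabp4 was not tested.

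The ratio of Fabp5 to Fabp4 separated the groups. It was 1.72, 2.10 and 1.65 in Sham, 1.70, 2.01 and 2.26 in IUA, 2.72, 3.04 and 3.64 with control MSC and 6.51, 4.79 and 5.21 with primed MSC. Sham and IUA overlapped, control MSC lay above both and primed MSC above all others. A ratio within a library does not change with the scaling of that library, and it shows unequal change of the 2 genes without telling which of them moved.

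**Figure D3:**
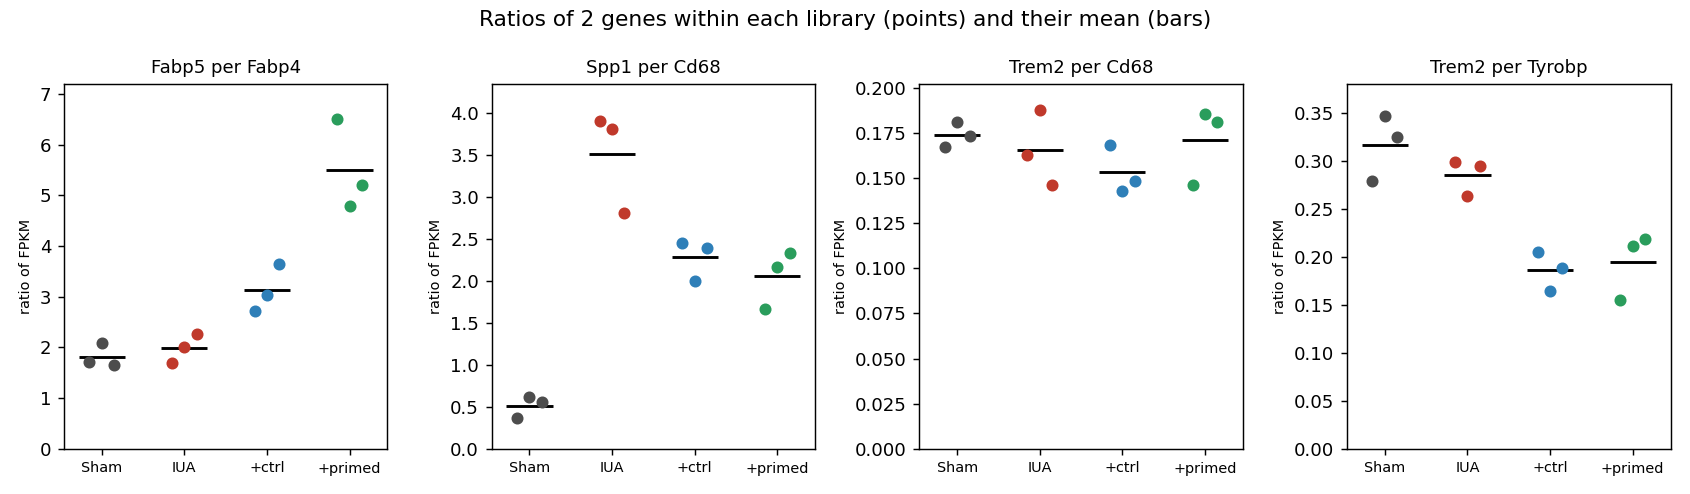
Ratios of FPKM within each library (points; linear axes from 0) and their group means (bars) for Fabp5 per Fabp4, Spp1 per Cd68, Trem2 per Cd68 and Trem2 per Tyrobp. Fabp5 per Fabp4 is 1.65 to 2.26 without MSC and 2.72 to 6.51 with MSC, while Trem2 per Cd68 stays between 0.143 and 0.187.

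Plin2 (chromosome 4, 86648386 to 86670060, minus strand), the coat of lipid droplets in most cells, was the only one of the 10 genes whose mean was higher with either MSC than in the model alone. Its FPKM was 621, 616 and 529 in Sham, 1265, 886 and 1275 in IUA, 1369, 1562 and 1506 with control MSC and 1419, 1544 and 1415 with primed MSC. All 6 libraries with MSC exceeded all IUA libraries, which exceeded Sham. Means were 589 ± 51.4, 1142 ± 222, 1479 ± 99.1 and 1459 ± 73.8. Against Sham the rise was 1.94-fold in IUA (0.94 ± 0.14, adjusted p = 0.000264), with a value of 0 after centring on the macrophage genes, as above. Of 20 other genes of lipid droplets 16 were tested, and 2 (Hilpda and Bscl2) rose in IUA and 7 fell, with a median of -0.45, near the shares and median of all tested genes (11.1 percent, 45.0 percent and -0.35). Hilpda, an inhibitor of droplet lipolysis, rose from 250 ± 65.6 to 920 ± 83.8 FPKM (1.9 ± 0.15, adjusted p = 6.13e-06), whereas Dgat2, which makes triglyceride, fell by 2.34 (± 0.4, 0.000579) and Fitm2, needed for droplet formation, by 1.38 (± 0.23, 0.000526).

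Spp1 (chromosome 5, 104435118 to 104441050, plus strand) encodes osteopontin, a secreted matrix protein that binds integrins and CD44. Its FPKM was 243, 301 and 286 in Sham, 5762, 3939 and 4253 in IUA, 2648, 2297 and 2876 with control MSC and 1501, 2230 and 2271 with primed MSC. The 4 groups did not overlap anywhere and fell in the order IUA, control MSC, primed MSC and Sham. Means were 277 ± 30.1, 4651 ± 975, 2607 ± 292 and 2001 ± 433. In rank among all genes Spp1 stood at 213 to 298 in Sham and at 10 to 15 in IUA. Against Sham the rise in IUA was 4.05 ± 0.18 on the log2 scale (adjusted p = 1.39e-07). Per Cd68 it stood at 0.362 to 0.618 in Sham, 2.81 to 3.90 in IUA, 2.00 to 2.46 with control MSC and 1.66 to 2.33 with primed MSC, where the MSC groups overlapped each other but not IUA.

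Of 10 genes of osteopontin receptors tested, Cd44 and Itga4 rose in IUA and the integrin subunits Itgb1, Itgb3 and Itga5 fell. Their median was -0.23, beside -0.35 for all tested genes, of which 11.1 percent rose and 45.0 percent fell. Cd44 went from 125 ± 15.6 to 257 ± 28.0 FPKM (1.04 ± 0.11, adjusted p = 5.32e-05), and Itga4 from 2.36 ± 0.427 to 5.52 ± 1.34 (0.94 ± 0.17, 0.000811). Itgav and Itgb5, which together form an osteopontin-binding integrin, were not called between IUA and Sham and moved apart with primed MSC. Against IUA, Itgav fell by 0.72 (± 0.17, adjusted p = 0.0131) and Itgb5 rose by 0.97 (± 0.19, 0.00548).

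Gpnmb (chromosome 6, 49036546 to 49070929, plus strand), a glycoprotein of lysosomes and the cell surface, had the widest spread within IUA. Its FPKM was 18.4, 15.3 and 29.6 in Sham, 162, 70.6 and 93.9 in IUA, 78.4, 80.3 and 69.0 with control MSC and 50.2, 67.9 and 72.3 with primed MSC. IUA replicate 1 stood above all others, and IUA replicate 2 lay among the MSC libraries. Gpnmb rose 5.16-fold in IUA, from 21.1 ± 7.55 to 109 ± 47.4 (2.28 ± 0.28, adjusted p = 0.000115). Gpnmb is a known target of the MIT/TFE factors, which drive lysosomal genes. Of these, Mitf rose from 1.30 ± 0.223 to 3.68 ± 0.159 FPKM (1.03 ± 0.13, adjusted p = 0.000113) and Tfec from 3.79 ± 1.38 to 8.72 ± 1.45 (1.05 ± 0.2, 0.00122). Tfe3 fell by 0.82 (± 0.17, 0.00202), and Tfeb did not pass (-0.42 ± 0.22, 0.119). Of 16 genes of lysosomal lipid handling, 12 rose and 1, Smpd1, fell, with a median of 0.62. Beside them, 11.1 percent of all tested genes rose and 45.0 percent fell, and the macrophage identity genes had a median of 0.91. Among the 12 were Npc2, a cholesterol carrier (1.11 ± 0.11, 2.24e-05), and the protease Ctsz (1.54 ± 0.13, 7.94e-06).

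Lgals3 (chromosome 14, 47367751 to 47386160, plus strand) encodes galectin-3, a lectin that binds damaged lysosomes and cell-surface sugars. Its FPKM was 832, 695 and 637 in Sham, 1786, 1205 and 1408 in IUA, 1410, 1334 and 1318 with control MSC and 1037, 1213 and 1202 with primed MSC. Sham was lowest throughout and primed MSC lay below control MSC without overlap, while IUA overlapped both. Lgals3 rose 2.03-fold in the model, from 722 ± 100.2 to 1466 ± 295 (1.01 ± 0.14, adjusted p = 0.000234). Of 5 other galectin genes tested (Lgals3bp, a binding partner, included), Lgals8 rose (0.54 ± 0.1, 0.00104) and Lgals4, known from epithelium, fell by 0.48 (± 0.14, 0.0104). Among all tested genes 11.1 percent rose and 45.0 percent fell.

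Cd9 (chromosome 6, 125460266 to 125494791, minus strand) went against the others. Its FPKM was 873, 1038 and 1105 in Sham, 468, 700 and 684 in IUA, 543, 335 and 360 with control MSC and 321, 299 and 395 with primed MSC. Sham was above all other libraries, and primed MSC was below IUA without overlap. Means were 1005 ± 119, 617 ± 130, 412 ± 114 and 338 ± 50.5. The change in IUA was to 0.614 of Sham (-0.72 ± 0.2, adjusted p = 0.0096).

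The call of Cd9 against Sham was lost under 3 settings, the median-ratio scaling given above, a correction for GC content (-0.45, adjusted p = 0.0658) and the epithelial score as a covariate (-0.04, 0.873). The score, the mean log2(FPKM + 1) of the 16 epithelial genes, was 6.81, 7.55 and 7.58 in Sham, 5.26, 6.43 and 5.89 in IUA, 6.52, 5.38 and 5.46 with control MSC and 6.07, 5.18 and 6.07 with primed MSC. Within groups, the deviation of Cd9 from its group mean had a Pearson correlation of 0.9 with that of the score over the 12 libraries, given as a description. For the other 9 genes it lay between -0.72 (Plin2) and -0.28 (Spp1). Because the score also separates Sham from the other groups, its part and that of the model cannot be told apart in this comparison. Of 9 related tetraspanin genes tested, 4 rose in IUA (Cd37, Cd53, Tspan3 and Tspan4) and 3 fell (Cd81, Cd82 and Cd151). Among all tested genes 11.1 percent rose and 45.0 percent fell. Cd53, a leukocyte tetraspanin, rose by 1.44 ± 0.13 (adjusted p = 1.15e-05) and Cd37 by 1.22 ± 0.13 (4.88e-05), while Cd81 fell by 0.6 (± 0.12, 0.00128) and Cd151 by 0.87 (± 0.18, 0.0015).

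**Figure D4:**
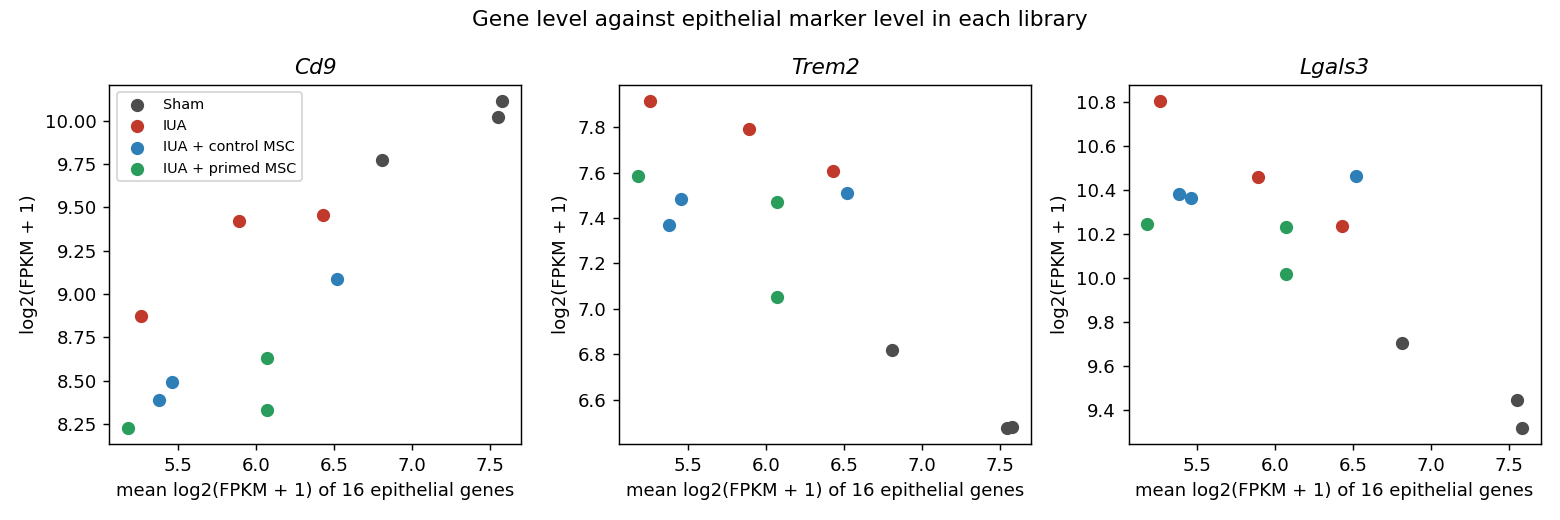
Level of Cd9, Trem2 and Lgals3, as log2(FPKM + 1), against the mean log2(FPKM + 1) of 16 epithelial marker genes in each of the 12 libraries, coloured by group. Cd9 is higher in libraries with a higher epithelial score (r of deviations from group means 0.9), and Trem2 and Lgals3 are lower (-0.56 and -0.61).

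With control MSC none of the 10 genes was called against IUA by limma, and 4 had an unadjusted p under 0.05. Of all tested genes 0.724 percent rose and 0.129 percent fell. The nearest was Spp1, at 2607 against 4651 FPKM (-0.82 ± 0.18, 95 percent interval -1.22 to -0.42, adjusted p = 0.0583), with all 3 libraries below all of IUA. Trem2 was also lower without overlap (-0.32 ± 0.15, adjusted p = 0.267) and Plin2 higher without overlap (0.39 ± 0.14, 0.168), where 7.33 percent of tested genes lay wholly below and 14.8 percent wholly above IUA. The 4 with an unadjusted p under 0.05 were Spp1, Plin2, Fabp4 (-0.68 ± 0.3, 0.246) and Cd9 (-0.59 ± 0.2, 0.16). Apoe, Fabp5 and Lgals3 differed from IUA by -0.05, -0.05 and -0.1. After centring on the macrophage genes, Spp1 (-1.15, adjusted p = 0.0133), Fabp4 (-1.01, 0.0406) and Trem2 (-0.65, 0.0294) passed, and with the epithelial score Spp1 (-0.83, 0.0427) and Cd9 (-0.55, 0.032) did. Adgre1, one of the centring genes, had itself risen from 434 ± 38.1 to 940 ± 101 FPKM (1.11 ± 0.14, adjusted p = 0.00942). Centring shifts all genes of a library by the same amount, and the share of all tested genes called after it is not given here.

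With primed MSC 3 of the 10 genes fell against IUA, Spp1, Fabp4 and Cd9, and none rose by limma. Over all tested genes 6.97 percent fell and 12.2 percent rose. An unadjusted p under 0.05 was found for 8 of the 10, of which Plin2 alone was higher. Spp1 stood at 2001 against 4651 FPKM (-1.22 ± 0.18, adjusted p = 0.00167) and Fabp4 at 10.6 ± 2.36 against 33.6 (-1.54 ± 0.3, 0.00571). Cd9 stood at 338 against 617 (-0.85 ± 0.2, adjusted p = 0.0139), and this call was lost without IUA replicate 3 (0.0551), primed MSC replicate 1 (0.051) or primed MSC replicate 2 (0.0537). In the same comparison 3 of 10 tested stromal markers fell (Dcn, Lum and Mfap5), with Dcn at 280 ± 181 in IUA and 65.2 ± 25.6 with primed MSC (-1.97 ± 0.4, adjusted p = 0.00685), while Col1a1 had means of 22.9 and 28.1. The 15 tested epithelial markers had a median change of -0.17. For the endothelial markers, Emcn and Egfl7 of 15 fell, and their part in the lower Fabp4 was not tested.

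The remaining 7 genes were not called between primed MSC and IUA. Trem2 (-0.4 ± 0.15, adjusted p = 0.0722), Lpl (-0.65, 0.0737), Gpnmb (-0.7, 0.102) and Lgals3 (-0.33, 0.123) had lower means, and Apoe and Fabp5 differed by -0.08 and -0.16. Plin2 was higher by 0.37 ± 0.14 (adjusted p = 0.0763), with all 3 libraries above IUA. It passed after rescaling to TPM (0.43, 0.0371), quantile normalization (0.52, 0.0146) or weighting of libraries (0.45, 0.0393), with the epithelial score (0.35, 0.0385) and without IUA replicate 1 (0.46, 0.0494), and its sign turned after centring on the macrophage genes (-0.08, 0.651). Without IUA replicate 2, the lowest IUA library for 9 of the 10 genes, 6 genes fell, as Gpnmb (-0.96, 0.0336), Lgals3 (-0.47, 0.0424) and Lpl (-0.86, 0.0292) joined. In all, 4 genes lay wholly below IUA (17.4 percent of tested genes did) and 1 wholly above (20.1 percent).

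**Figure D5:**
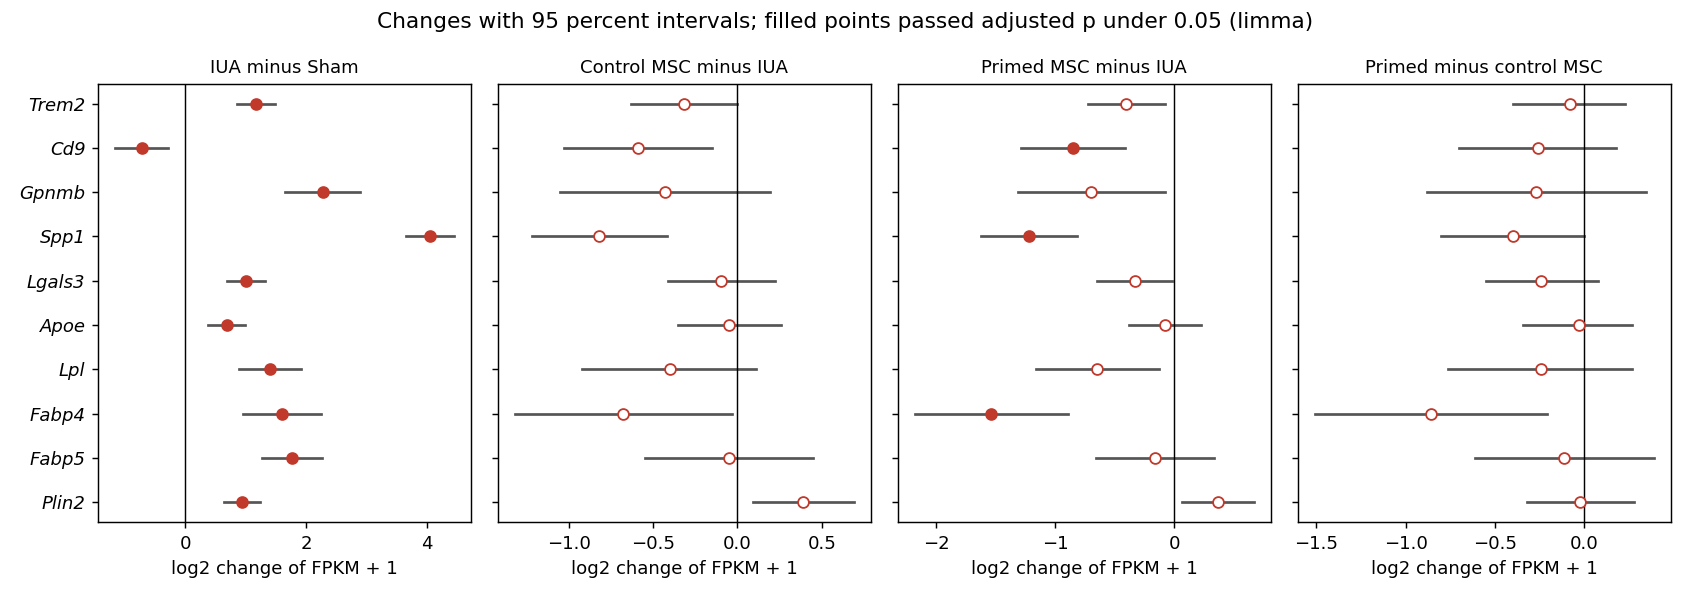
Log2 changes (points) with 95 percent confidence intervals (lines) of the 10 genes in 4 comparisons, from FPKM as deposited; filled points passed an adjusted p under 0.05, and each panel has its own axis range. All points of IUA against Sham are filled, 3 are filled for primed MSC against IUA (Cd9, Spp1 and Fabp4), and none is filled where control MSC is compared with IUA or primed with control MSC.

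Further genes of the TREM2 and lipid lists are set here against the 12.2 percent of tested genes that rose and the 6.97 percent that fell with primed MSC against IUA. Of the 15 partners of TREM2, 6 rose against IUA and none fell: Syk, Plcg2, Inpp5d, Pik3ap1, Vav1 and Grb2. Syk, the kinase that TYROBP recruits, rose by 0.88 ± 0.17 (adjusted p = 0.00621), and Inpp5d, the phosphatase SHIP1 that limits this signal, by 1.36 ± 0.17 (0.000727). With control MSC, Inpp5d (0.81 ± 0.17, 0.0498) and Pik3ap1 (0.74 ± 0.15, 0.0427) of the same list passed against IUA. Of 16 droplet genes 2 rose, a share near that of all tested genes: the lipase Pnpla2 and Dgat1, which makes triglyceride and went from 42.1 ± 13.4 to 108 ± 19.2 FPKM (1.37 ± 0.2, adjusted p = 0.00149). Among 12 genes of lipid-sensing nuclear receptors and their targets, Rxrb, Nr1h2, Abca1 and Srebf1 rose. Abca1, a cholesterol exporter, went from 77.3 ± 11.3 to 108 ± 4.23 FPKM (0.49 ± 0.11, 0.0123), and Srebf1, a factor of fatty acid synthesis, from 1.77 ± 0.164 to 4.99 ± 0.104 (1.11 ± 0.16, 0.00149). Of the MIT/TFE factors Tfe3 (1.23 ± 0.17, 0.00131) and Tfeb (0.73 ± 0.22, 0.0371) rose and Tfec fell by 1.14 (± 0.2, 0.00407). Fabp7, a further fatty acid binding protein, fell by 1.04 (± 0.21, 0.0076) to 1.87 ± 0.811 FPKM, and Fabp3 had a like change that did not pass (-0.85 ± 0.28, 0.0537).

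A further 30 genes reported for lipid-, scar- and disease-associated macrophages were examined, some of which are also in the lysosomal list. In IUA 20 of them rose against Sham and 3 (Axl, Csf1 and Gnb4) fell, with a median of 0.59. Among the 20 is Cd68, used above as a reference gene and as the divisor of ratios. Of all tested genes 11.1 percent rose and 45.0 percent fell. The 16 macrophage identity genes, of which 13 rose and 1 fell, had a higher median of 0.91. Clec7a, a lectin receptor of fungal sugars, went from 93.9 ± 10.9 to 500 ± 23.9 FPKM (2.4 ± 0.11, adjusted p = 1.39e-07), and the chemokine Ccl6 from 228 ± 52.5 to 1178 ± 101 (2.38 ± 0.15, 1.59e-06). With primed MSC 8 fell against IUA and 3 rose, with a median of -0.25. Of all tested genes 6.97 percent fell and 12.2 percent rose, with a median of -0.03. Ccl6 fell by 1.06 (± 0.15, adjusted p = 0.00132), and the matrix- and bone-resorption genes Mmp12 (by 1.39 ± 0.36, 0.0199), Ctsk (by 1.42 ± 0.26, 0.00431) and Atp6v0d2 (by 1.7 ± 0.24, 0.0013) were among the others. Axl, a receptor for dying cells, rose by 0.82 ± 0.22 (adjusted p = 0.0222). Among receptors for lipid uptake, the scavenger receptor Marco rose in IUA, from 0.963 ± 0.131 to 39.6 ± 9.61 FPKM (4.34 ± 0.23, 3.48e-07), and Vldlr, which binds triglyceride-rich lipoproteins, fell by 1.2 (± 0.21, 0.000715).

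Primed and control MSC did not differ in any of the 10 genes by limma, with 0.0776 percent of tested genes higher and 0.0345 percent lower after priming, and 2 had an unadjusted p under 0.05. These were Fabp4, at 10.6 against 19.9 ± 3.33 FPKM (-0.86 ± 0.3, adjusted p = 0.269), and Spp1, at 2001 against 2607 (-0.4 ± 0.18, 0.387). Both of them and Lgals3 (-0.24 ± 0.14, 0.531) were lower with primed MSC without overlap, and 12.9 percent of tested genes were. The other 7 differed by -0.27 to -0.02. The intervals do not show equal levels: that of Fabp4 reaches from -1.51 to -0.21.

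The MSC groups were also compared with Sham. These comparisons share the Sham libraries with that of IUA. With control MSC 9 genes rose and Cd9 fell, and 14.1 percent of tested genes rose and 42.7 percent fell. None overlapped Sham, from which 17.0 percent of tested genes lay wholly above and 49.6 percent wholly below. The rises came to 3.23 for Spp1, 1.85 for Gpnmb, 1.72 for Fabp5, 1.33 for Plin2 and 0.92 ± 0.3 for Fabp4 (adjusted p = 0.0188). With primed MSC 8 genes rose and Cd9 fell by 1.57, against 14.5 percent of tested genes that rose and 45.0 percent that fell. These 9 genes did not overlap Sham, beside 17.5 percent of tested genes wholly above it and 50.6 percent wholly below. Fabp4 was the gene not called, at 10.6 ± 2.36 against 10.5 ± 4.72 FPKM, with a change of 0.06 ± 0.3 whose interval runs from -0.58 to 0.71 (adjusted p = 0.862). With the epithelial score as a covariate 4 genes were still higher with control MSC and 3 with primed MSC. Trem2, Lgals3, Apoe and Lpl then lost their calls in both groups (adjusted p from 0.0508 to 0.702), Fabp4 with control MSC (0.29, 0.648) and Gpnmb with primed MSC (1.17, 0.0642). The score separates Sham from both MSC groups, so its part and that of the model with MSC cannot be told apart. The call of Apoe was also lost after quantile normalization (0.08 in both, adjusted p = 0.573 with control and 0.57 with primed MSC) and with no filter on low values (0.0525 and 0.0613). After centring on the macrophage genes Trem2, Fabp4, Lgals3, Apoe and Lpl had the opposite sign to that printed here in both MSC groups. With primed MSC Plin2 did as well. Centring shifts all genes of a library by the same amount. The share of all tested genes whose sign changed with it is not given here. The centring genes did not move equally. Adgre1 had means of 223 FPKM in Sham, 940 with control MSC and 1175 with primed MSC, and Cd68 of 556, 1142.5 and 969.

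Within groups, 4 libraries had all 9 genes other than Cd9 on one side of their group mean. In IUA replicate 1 all 9 lay above (median deviation 0.33 on the log2 scale), and in IUA replicate 2 all 9 lay below (-0.35). Primed MSC replicate 1 had all 9 below its group mean (-0.31), and primed MSC replicate 2 all 9 above (0.12). The other 8 libraries had genes on both sides, such as 5 above and 4 below in IUA replicate 3, 4 above and 5 below in control MSC replicate 2, and 3 above and 6 below in control MSC replicate 3 and in Sham replicate 3. Over the 36 pairs of these 9 genes, correlations of the deviations ran from 0.18 to 0.93 with a median of 0.61, and over the 9 pairs with Cd9 from -0.58 to -0.1. These are descriptions over 12 libraries that share cells, scale and digestion. The same counts were not made over all tested genes, so a shift of a whole library cannot be told apart from one of these 9 genes.

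The genes most like each of the 10, by Pearson correlation of log2(FPKM + 1) over the 12 libraries, are given as a description. Trem2 was most like Vsig4, a complement receptor of resident macrophages (0.982), Syngr1 (0.979) and Cd84 (0.974), and Lgals3 most like Cd84 (0.974), Cd68 (0.969) and Apoe (0.967). Gpnmb and Lpl shared Mmp12, macrophage elastase (0.962 and 0.964), and Serpinb2 (0.955 and 0.959), and Lpl was also near Vsig4 (0.956). Fabp4 was nearest to Ctsk (0.937), Atp6v0d2 (0.934) and Fcna (0.911). Spp1 was nearest to Ciao2a (0.979), Ccr1 (0.976) and Eri1 (0.976), Fabp5 to Ctsz (0.984), Pdpn (0.984) and Lat2 (0.983), and Apoe to Lipa, the lysosomal lipase (0.98), Fabp5 (0.973) and Il7r (0.969). Plin2 was nearest to Il10rb (0.99), B3gnt5 (0.982) and Lst1 (0.98). Cd9 was nearest to Stk38l (0.994), Cdc42bpa (0.991) and Palld (0.987).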

How the data were processed

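The data are one table of FPKM per gene and library, made by the authors from 12 RNA-seq libraries of bead-sorted F4/80-positive cells after trypsin and collagenase digestion, per the labels' protocols. Tools listed in the submitters' processing notes are fastp for reads, HISAT2, StringTie and RSEM, and DESeq2, with the build mm10 and no versions, and which of them gave the deposited FPKM is not given in the sources used here. Library FPKM sums were 505459.9 to 563751, which is no depth; whole reads could not be recovered, so depth is unknown and no count test or counting interval was used. For 27 genes the symbol, stored as a date, was restored. No 2 libraries were identical.

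The 11604 of 22294 genes that reached an FPKM of 1 in 3 or more libraries were fitted as log2(FPKM + 1) in limma 3.58.1 (R 4.3.3), with 1 mean per group, all 12 libraries and a variance trend. Tests were two-sided with Benjamini-Hochberg adjustment over all tested genes. With the pseudocount, changes of low genes are understated. With 3 libraries a group, the smallest two-sided exact permutation p is 0.1. The fit was tested on simulated data. Positions and GC content came from GENCODE M21, promoters from RefSeq.

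The 10 genes and all lists were chosen with earlier results of these data known. From each list, counts and up to 4 genes with the smallest moderated F p are given, for each of the 10 genes the 3 most correlated tested genes with a proper symbol, and Adgre1, Csf1r, Cd68 and Ptprc as reference. Further genes named from lists were chosen after their values were seen. The counts of the list of lipid uptake receptors are not reported here. Alternatives were pseudocounts, filters, scalings, fits to the compared groups alone, library weights, robust variances, a replicate block and leaving out each library. A GC correction (lowess, span 0.3) and the epithelial score as a covariate were added after seeing the data.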

Additional observations from a re-analysis of the deposited data

How the results depend on the processing

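Each of the 60 changes (10 genes, 6 comparisons) was recomputed under 26 alternatives. Pseudocounts of 0.1 and 0.5, a filter at FPKM 5, fits to the compared groups alone, robust variances and the replicate block changed no call or direction. The labels state no pairing of samples by replicate number. Correlations of deviations between libraries of equal number ran from -0.293 to 0.288, with 3 of 18 over 0.1. The block changed 0 of 60 calls. With 3 libraries a group these values cannot show whether samples were paired. The depth behind each value is unknown, which limits what can be said of low genes such as Fabp4.

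For IUA against Sham, the count of genes that fell was 0 after median-ratio scaling, GC correction and the epithelial covariate, and the count that rose was 4 after centring on the macrophage genes. For control MSC against IUA, 3 genes fell after centring and 2 with the covariate. For primed MSC against IUA, 1 gene rose after TPM, quantile normalization, array weights or the covariate. There 9 genes fell after centring and 5 with the covariate. Leaving out 1 library there gave 0 to 1 rising (1 without IUA replicate 1) and 2 to 6 falling genes (6 without IUA replicate 2). The centring genes themselves moved apart in this comparison. Adgre1, the target of the beads, rose from a mean of 434 to 1175 FPKM and Csf1r from 202 to 364. Cd68 (1341 and 969) and Ptprc (192 and 178) had lower means and were not called. Trem2 per Cd68 had means of 0.165 in IUA and 0.171 with primed MSC. For control MSC against Sham, centring gave 2 rising and 4 falling genes, and the covariate 4 rising. For primed MSC against Sham, centring gave 1 rising and 6 falling, and the covariate 3 rising. Centring shifts all genes of a library by the same amount. The shares of all tested genes called after centring or with the covariate are not given here. These counts therefore do not set the genes described here apart from other tested genes. The causes were not tested. Calls lost without single libraries were those of Fabp4 for control MSC against Sham (0.68 without Sham replicate 2, 0.86 without Sham replicate 3, 0.81 without control MSC replicate 1) and of Lpl for primed MSC against Sham (0.6 without Sham replicate 2, 0.58 without primed MSC replicate 2), beside those of Cd9 given above.

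Changes of sign, on the log2 scale, were as follows. After centring on the macrophage genes, IUA against Sham gave -0.25 for Apoe and 0 for Plin2, and primed MSC against IUA gave -0.08 for Plin2. Control MSC against Sham then gave -0.41 for Trem2, -0.35 for Fabp4, -0.36 for Lgals3, -0.64 for Apoe and -0.27 for Lpl. Primed MSC against Sham gave -0.61 for Trem2, -1.33 for Fabp4, -0.71 for Lgals3, -0.78 for Apoe, -0.63 for Lpl and -0.08 for Plin2. With the covariate, Fabp4 was at -0.58 for primed MSC against Sham. Array weights gave 0.03 for Fabp5 in control MSC against IUA. For primed against control MSC, Apoe was at 0.01 after TPM or median-ratio scaling, and Plin2 at 0.03 after TPM, 0.02 after median-ratio scaling and 0.15 after quantile normalization. Leaving out 1 library at a time gave, for control MSC against IUA, -0.28 to 0.12 for Fabp5, -0.23 to 0.06 for Lgals3 and -0.17 to 0.05 for Apoe. For primed MSC against IUA it gave -0.39 to 0.01 for Fabp5 and -0.2 to 0.02 for Apoe. For primed against control MSC it gave -0.09 to 0.03 for Apoe, -0.07 to 0.02 for Plin2, -0.19 to 0.07 for Trem2 and -0.43 to 0.01 for Lpl, and for primed MSC against Sham -0.18 to 0.38 for Fabp4. None of these leave-one-out changes of sign was a called change.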

Other observations

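Relatives of the 10 genes add some detail. All 3 tested genes of the TREM family beside Trem2 rose in IUA against Sham: Trem1, a receptor that amplifies inflammation, from 3.84 ± 0.705 to 45.4 ± 16.5 FPKM (log2 change 3.2 ± 0.23, limma adjusted p = 2.93e-06), Trem3 from 0.483 ± 0.352 to 7.42 ± 3.12 (2.46 ± 0.28, 6.59e-05) and Treml4 from 3.57 ± 1.08 to 14.7 ± 2.32 (1.79 ± 0.2, 5.36e-05). Neutrophil markers, of which 7 of 10 tested rose in the same comparison, also moved with Trem1, and their part was not tested. Of 12 tested genes of lipid-sensing nuclear receptors and their targets, 3 rose in IUA (Nr1h3, Abca1 and Abcg1) and 2 fell (Nr1h2 and Srebf1). Their median was -0.05, beside -0.35 for all tested genes, of which 11.1 percent rose and 45.0 percent fell in IUA against Sham. Nr1h3 (LXR alpha) rose from 3.66 ± 0.536 to 9.52 ± 0.995 FPKM (1.18 ± 0.19, 0.000478), whereas Nr1h2 encodes LXR beta. The sterol exporter Abcg1 rose from 23.2 ± 4.47 to 64.3 ± 20.4 (1.4 ± 0.21, 0.000292), and Srebf1 fell by 1.12 (± 0.16, 0.000256).

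Apoc4, a neighbour of Apoe, rose in IUA from 0.423 ± 0.251 to 4.04 ± 0.565 FPKM (1.83 ± 0.21, 6.26e-05) and fell with primed MSC against IUA, to 1.64 ± 0.716 (-0.96 ± 0.21, 0.00887), while Apoc1 did not pass between those groups (-0.11 ± 0.19, 0.722). The phospholipase-like lysosomal gene Plbd1 rose in IUA against Sham, from 62.6 ± 12.5 to 125 ± 19.2 FPKM (1 ± 0.16, 0.000438), and again with primed MSC against IUA, to 254 ± 22.1 (1.02 ± 0.16, 0.00216).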
